A study of Mus musculus with 4 samples.

Results

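Chemokines are small secreted proteins that direct the movement of leukocytes by binding G protein-coupled receptors. ILC2s, group 2 innate lymphoid cells, are lymphocytes of tissues that carry no antigen receptor, make type 2 cytokines and can also call other cells into a tissue through the chemokines they release. The 10 chemokine genes described here were taken by symbol from a table of 22083 genes, and all 10 were in it. They encode the CXCR2 ligands Cxcl1, Cxcl2 and Cxcl3, which attract neutrophils, the interferon-inducible CXCR3 ligand Cxcl10, the membrane-anchored CXCR6 ligand Cxcl16, the CCR8 ligand Ccl1, the inflammatory CC chemokines Ccl3, Ccl4 and Ccl5, and the XCR1 ligand Xcl1.

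Total RNA had been sequenced from ILC2s sorted out of small intestinal lamina propria (SI-ILC2, 2 libraries, called intestinal ILC2s below) or out of white adipose tissue of the mesentery (WAT-ILC2, 2 libraries, called adipose ILC2s). All libraries came from wild-type (WT) C57BL/6 mice aged 9 weeks, with no treatment, transgene or gene deletion in the labels. The comparison asked how ILC2s of these tissues differ. Whether a tissue's libraries came from separate mice, or from pooled ones, is not in the labels, so a p-value here rests on the spread between libraries alone, which may be technical. Sorting markers are not named in these sources, and an effect of the isolation and an effect of the tissue cannot be told apart.

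The values were RPKM, reads scaled to gene length and library depth, so levels can be compared between genes. The step size of low values put the depth at 55400000 to 75700000 reads per library. All 12 ILC2 marker genes passed the filter described next, among them the lineage factor Gata3 at 354 and 377 RPKM in intestinal ILC2s and 338 and 397 RPKM in adipose ILC2s. Of the 12, 5 were called higher in intestinal ILC2s, such as the IL-25 receptor gene Il17rb (164 and 141 against 14.3 and 10.3 RPKM), and 4 in adipose ILC2s, such as the IL-33 receptor gene Il1rl1 (14.3 and 15.4 against 65.7 and 63.4 RPKM). Changes are intestinal minus adipose, in log2(RPKM + 1), a scale on which low genes appear to change less than they do. Genes with at least 1 RPKM in at least 2 libraries were tested (8230), and a gene was called at an adjusted p below 0.05 (limma, Benjamini-Hochberg over all tested genes). Of all tested genes, 47.5% were called, with 17.9% higher in intestinal ILC2s and 29.6% higher in adipose ILC2s, and the median change was -0.15. intestinal ILC2s held 37.6% of the calls, against 51.8% after median-of-ratios scaling, 47.7% after quantile normalization and 28% after rescaling to equal sums. The first of these scalings moved the median change to 0.00.

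Among the 10 genes, Cxcl3 had the largest difference of those tested, at a mean of 36.3 RPKM in intestinal ILC2s against 3.38 RPKM in adipose ILC2s. Its neighbours Cxcl1 and Cxcl2, which act on the same receptor, were expressed in both tissues at levels whose difference did not pass the test. Cxcl16 was also called higher in intestinal ILC2s, at about 1 RPKM. Ccl3, Ccl4, Ccl5 and Xcl1 lay below the filter, with higher RPKM in intestinal ILC2s for each. For Ccl5 that difference was within counting error (95% interval of the ratio of read rates 0.917 to 2.81).

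Cxcl1, Cxcl2 and Cxcl3 lie on the forward strand of chromosome 5 (GRCm38, GENCODE M21), within 119.8 kb. Cxcl3 spans 90786103 to 90789600, Cxcl1 spans 90891241 to 90893115 and Cxcl2 spans 90903871 to 90905938. Each main coding transcript has 4 exons. The coding sequences of Cxcl2 and Cxcl3 were identical at 89.8% of alignment columns, gaps counted, against 75.6% for Cxcl1 and Cxcl2 and 72.6% for Cxcl1 and Cxcl3. The upstream sequence of these paralogs is printed because they share an element, while Cxcl3 alone of them was called different between tissues. The 80 bases that end 31 bases before each RefSeq transcription start (GRCm38.p6) are shown for them and for Cxcl10, 5′ to 3′ on the strand of the gene, with capitals marking matches to the NF-kappaB consensus or to the AP-1 motif TGANTCA.
Cxcl1: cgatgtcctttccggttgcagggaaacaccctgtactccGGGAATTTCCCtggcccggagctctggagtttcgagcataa
Cxcl2: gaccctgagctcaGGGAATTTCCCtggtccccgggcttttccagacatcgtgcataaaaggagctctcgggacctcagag
Cxcl3: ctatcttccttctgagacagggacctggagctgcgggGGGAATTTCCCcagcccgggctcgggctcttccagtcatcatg
Cxcl10: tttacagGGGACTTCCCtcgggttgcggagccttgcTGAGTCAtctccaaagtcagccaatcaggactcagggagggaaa

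These windows are chr5:90891135-90891214 (Cxcl1), chr5:90903789-90903868 (Cxcl2), chr5:90785991-90786070 (Cxcl3) and, on the reverse strand, chr5:92348920-92348999 (Cxcl10), and none overlaps an annotated exon. NF-kappaB is the transcription factor family that drives many inflammatory genes. The longest sequence shared by the promoters of the 3 CXCR2 ligands was GGGAATTTCCC (11 bases), which stood in those of Cxcl1 (71 to 61 bases before the start), Cxcl2 (97 to 87 bases) and Cxcl3 (73 to 63 bases). This sequence was found on either strand in 14 of 32536 distinct RefSeq promoter windows of 250 bases (0.043%), and the NF-kappaB consensus, which matches it at overlapping offsets, in 3.92%. The 3 genes are among those 14 by construction, since the sequence was picked from their promoters. Over the full 250 bases the promoters of the 3 genes were identical at 49.7% to 54.7% of alignment columns. Gaps were counted among the 285 to 294 columns, so identity over bases aligned to a base was higher. The Cxcl10 promoter held 2 NF-kappaB consensus matches and the AP-1 motif, which 6.73% of windows hold on either strand. Of the 10 genes, 7 had a RefSeq promoter entry. The promoters of Ccl1, Ccl3 and Xcl1 held no match to the NF-kappaB consensus or the AP-1 motif in their 250 bases. A match is a description of the sequence and not a measured binding site.

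Cxcl3 was at 37.7 and 35.0 RPKM in the intestinal libraries and at 3.51 and 3.24 RPKM in the adipose libraries. Both intestinal values thus lay far above both adipose values, and the libraries of a tissue lay close together. The change was 3.09 (SE 0.14, adjusted p = 0.000132), and 24 of the 8230 tested genes had a larger change toward intestinal ILC2s. The ratio of the means was 10.8. Over 11 other processing settings the change ranged from 2.96 to 3.39 with every call kept. Of the 967 stretches of 50 bases in the main Cxcl3 transcript, 6.3% also occur in Cxcl2 and none in other annotated genes, so reads from few positions could be assigned to either.

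Cxcl1 was at 38.7 and 36.1 RPKM in intestinal ILC2s and at 65.1 and 46.2 RPKM in adipose ILC2s. Both adipose libraries lay above both intestinal libraries, as was so for 45.9% of tested genes, and the adipose libraries differed more from each other than the intestinal ones. The change was -0.54 (95% interval -1.01 to -0.07) with an adjusted p of 0.0587, which missed the threshold. Of the other scalings, it passed after rescaling to equal sums (adjusted p = 0.0222) and with quantile normalization (adjusted p = 0.0484). It did not pass after median-of-ratios scaling (adjusted p = 0.199). The change was -0.78 without WAT-ILC2 replicate 2 and -0.30 without WAT-ILC2 replicate 1.

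Cxcl2 was at 14.5 and 24.6 RPKM in intestinal ILC2s and at 13.5 and 19.1 RPKM in adipose ILC2s. The tissues overlapped, and in each the library of replicate 2 was the higher. The change was 0.23 (95% interval -0.43 to 0.89, adjusted p = 0.525), an interval that allows a difference in either direction.

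**Figure D1:**
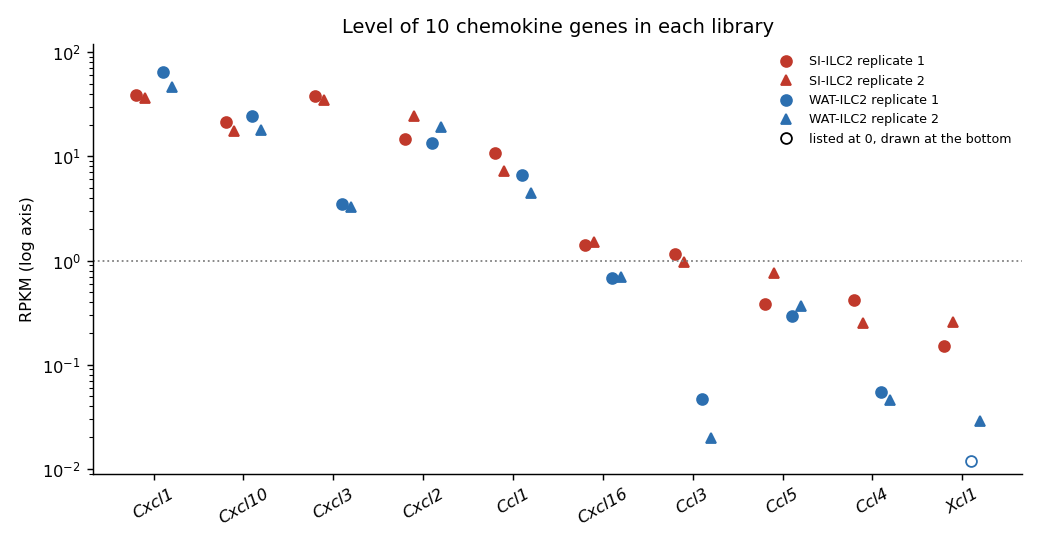
RPKM (log axis) of the 10 chemokine genes in each library, with intestinal ILC2s in red and adipose ILC2s in blue, circles for replicate 1 and triangles for replicate 2; the dotted line marks 1 RPKM. Cxcl3 stands at 35.0 to 37.7 RPKM in intestinal ILC2s and 3.24 to 3.51 RPKM in adipose ILC2s, while Cxcl2 and Cxcl10 overlap between tissues.

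Ratios within a library do not change when a library is scaled by 1 factor. Cxcl1 and Cxcl3 were nearly equal in intestinal ILC2s, where the ratio of Cxcl1 to Cxcl3 was 1.03 in both libraries. In adipose ILC2s that ratio was 18.5 and 14.2. Of the summed RPKM of Cxcl1, Cxcl2 and Cxcl3, Cxcl3 held 41.5% and 36.5% in intestinal ILC2s and 4.3% and 4.7% in adipose ILC2s. The share of Cxcl2 was 16.0% and 25.7% against 16.4% and 27.8%, so it overlapped between tissues. The sum itself was 90.9 and 95.7 RPKM in intestinal ILC2s and 82.1 and 68.5 RPKM in adipose ILC2s, a smaller difference than that of Cxcl3 alone. These 3 genes made up 71.9% to 77.1% of the summed RPKM of all 10 chemokine genes in every library. Cxcl15, a chemokine gene located between Cxcl3 and Cxcl1, was at 0.062 RPKM or less in all 4 libraries.

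**Figure D2:**
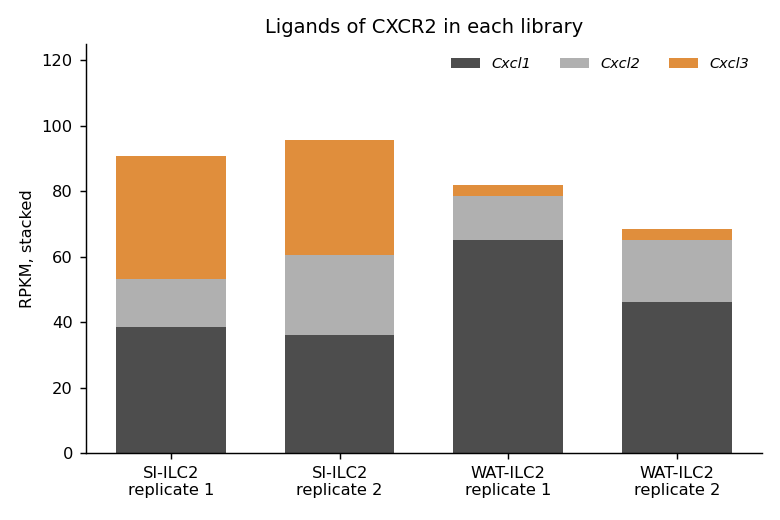
Stacked RPKM of the CXCR2 ligand genes Cxcl1, Cxcl2 and Cxcl3 in each of the 4 libraries, on an axis from 0. The total is 90.9 and 95.7 RPKM in intestinal ILC2s and 82.1 and 68.5 RPKM in adipose ILC2s, and the Cxcl3 part is 41.5% and 36.5% against 4.3% and 4.7%.

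Cxcl10 (chromosome 5, 92346638 to 92348889, reverse strand), which recruits CXCR3-bearing T and NK cells, was at 21.2 and 17.4 RPKM in intestinal ILC2s and at 24.4 and 17.8 RPKM in adipose ILC2s. The tissues overlapped, and the change was -0.11 (95% interval -0.58 to 0.35, adjusted p = 0.645). Its exons overlap Art3 on the opposite strand, and no source used here says whether reads were counted by strand. Cxcl9, another CXCR3 ligand, was below the filter at 0.52 and 0.42 RPKM in intestinal ILC2s and 0.74 and 0.78 RPKM in adipose ILC2s.

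Cxcl16 (chromosome 11, 70453983 to 70459984, reverse strand) encodes a chemokine anchored in the membrane, from which proteases can release it. It was at 1.40 and 1.51 RPKM in intestinal ILC2s and at 0.68 and 0.69 RPKM in adipose ILC2s, with no overlap. The change was 0.54 (SE 0.11, adjusted p = 0.0104), and 0.98 with a pseudocount of 0.1. The gene passed the filter only through the intestinal libraries, so a difference was needed for it to be tested at all, and it was not tested when either intestinal library was left out. Its exons overlap Zmynd15 on the opposite strand. By mean level Cxcl16 stood above 6.54% of tested genes, Cxcl3 above 80.4% and Cxcl1 above 94.5%.

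Ccl1 (chromosome 11, 82176657 to 82305690, reverse strand) encodes a ligand of CCR8, a receptor carried by type 2 lymphocytes. The annotated span reaches far upstream of the RefSeq start, whose promoter window of 80 bases lies at 82179843 to 82179922. The main transcript has 3 exons and 514 bases. Ccl1 was at 10.7 and 7.23 RPKM in intestinal ILC2s and at 6.61 and 4.45 RPKM in adipose ILC2s. The intestinal libraries lay above the adipose ones by a small margin, as was so for 29.8% of tested genes, and in each tissue replicate 1 was the higher. The change was 0.61 (95% interval 0.04 to 1.18) with an adjusted p of 0.0754, which missed the threshold. Of the other scalings, it passed only after median-of-ratios scaling (0.77, adjusted p = 0.0419). The change was 0.86 without SI-ILC2 replicate 2 and 0.85 without WAT-ILC2 replicate 1. It was 0.35 and 0.37 without the other library of each tissue.

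In all, 6 of the 10 genes were tested, of which 2 (Cxcl3 and Cxcl16) were called higher in intestinal ILC2s and none higher in adipose ILC2s (limma, adjusted p below 0.05), beside 17.9% and 29.6% of all tested genes. Cxcl16 was tested only because of its intestinal level, so the count supports nothing about the group. At an unadjusted p below 0.05 these counts were 3 and 1, beside 21.6% and 34.4% of all tested genes. Over all 10 genes, the intestinal libraries lay above the adipose ones for 7, the reverse held for Cxcl1, and Cxcl2 and Cxcl10 overlapped. Among the 21851 genes with a value above 0 in any library, the intestinal libraries were above the adipose ones for 23.3% and below them for 31.2%.

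**Figure D3:**
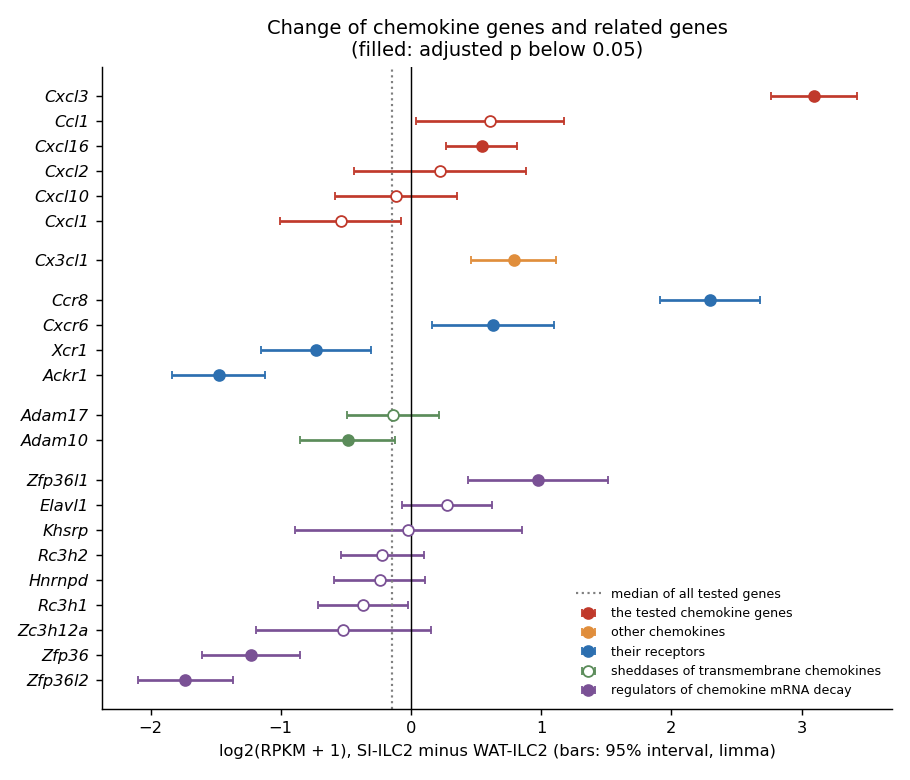
Change between tissues on the log2(RPKM + 1) scale with its 95% interval from limma, for the tested genes of the chemokine group, of other chemokines, of their receptors, of shedding proteases and of regulators of mRNA decay; filled points passed an adjusted p of 0.05 and the dotted line is the median of all tested genes at -0.15. Cxcl3 at 3.09 and Ccr8 at 2.30 lie farthest to the SI-ILC2 side, and Zfp36l2 at -1.73 farthest to the WAT-ILC2 side.

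The remaining genes did not pass the filter and are given as reads, estimated from RPKM, transcript length and depth. Ccl3, Ccl4 and Ccl5 lie on chromosome 11 and encode chemokines also known as MIP-1alpha, MIP-1beta and RANTES. Ccl3 (83647844 to 83649355) was at 1.17 and 0.96 RPKM in intestinal ILC2s, or 68 and 44 reads, and at 0.047 and 0.020 RPKM in adipose ILC2s, or 2 reads and 1 read. The ratio of read rates was 33.4, with an exact 95% interval of 11.1 to 164. All such intervals cover counting error only and not the spread between libraries.

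Ccl4 (83662584 to 83664683) had 21 and 10 reads in intestinal ILC2s (0.42 and 0.25 RPKM) and 2 reads in each WAT-ILC2 library (0.054 and 0.046 RPKM). The ratio of read rates was 6.93, with an exact 95% interval of 2.45 to 27.0. Ccl5 (83525778 to 83530518) had about 15 and 24 reads in intestinal ILC2s (0.38 and 0.76 RPKM) and about 9 and 13 in adipose ILC2s (0.29 and 0.36 RPKM), a ratio of 1.59 whose interval, 0.917 to 2.81, includes no difference. Ccl6 and Ccl9, located between Ccl5 and Ccl3, were at 0.25 RPKM or less in all 4 libraries.

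Xcl1 (chromosome 1, 164931644 to 164935527, reverse strand), a chemokine of NK cells and activated T cells that attracts cross-presenting dendritic cells, had 6 and 8 reads in intestinal ILC2s (0.15 and 0.26 RPKM). In adipose ILC2s it was listed at 0 in replicate 1 and had 1 read in replicate 2, at 0.029 RPKM. Its ratio of 12.5 has an interval of 1.91 to 530.0, so its size is poorly fixed. Exons of Xcl1 also overlap Gm20743 on the opposite strand. With no filter, Ccl3 (change 0.996, adjusted p = 0.00274), Ccl4 (0.34, adjusted p = 0.0273) and Xcl1 (0.24, adjusted p = 0.03) were called higher in intestinal ILC2s by limma and Ccl5 was not (0.23, adjusted p = 0.365). In that setting 5.95% of 21851 genes were called higher in intestinal ILC2s.

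In intestinal ILC2s the order of levels was Cxcl1, Cxcl3, Cxcl2, Cxcl10, Ccl1, Cxcl16, Ccl3, Ccl5, Ccl4 and Xcl1, where Cxcl1 and Cxcl3, Cxcl2 and Cxcl10, Ccl5 and Ccl4, and Ccl4 and Xcl1 were neighbours whose libraries overlapped. In adipose ILC2s it was Cxcl1, Cxcl10, Cxcl2, Ccl1, Cxcl3, Cxcl16, Ccl5, Ccl4, Ccl3 and Xcl1, with overlap between Cxcl10 and Cxcl2, Ccl4 and Ccl3, and Ccl3 and Xcl1. Cxcl3 thus stood below Ccl1 in adipose tissue and level with Cxcl1 in the intestine. Ccl3 exceeded Ccl4 by 2.79 and 3.79 times in intestinal ILC2s, where both had at least 10 reads in each library.

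Other chemokine genes were nearly silent. Of 27 listed, 26 were in the table (Cxcl11 was not analysed here), and Cx3cl1 alone reached the filter. Cx3cl1 encodes fractalkine, which like Cxcl16 is a membrane-anchored chemokine, and was at 1.10 and 1.54 RPKM in intestinal ILC2s and 0.28 and 0.40 RPKM in adipose ILC2s. It was called higher in intestinal ILC2s (change 0.79, adjusted p = 0.005), and it too passed the filter only through the intestinal libraries. Ccl11, or eotaxin, which recruits eosinophils, was at 0.12 and 0.031 RPKM in intestinal ILC2s and 0.57 and 1.14 RPKM in adipose ILC2s. Ccl2, a monocyte attractant, was at 0.11 RPKM and at 0 against 0.38 and 0.82 RPKM. With no filter these 2 genes were called higher in adipose ILC2s (adjusted p of 0.0218 and 0.0341), where 9.59% of genes were.

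Receptors for the 10 chemokines differed in level by orders of magnitude within ILC2s. Of 10 listed, 4 were tested, of which 2 were called higher in intestinal ILC2s and 2 in adipose ILC2s, beside 17.9% and 29.6% of all tested genes. Ccr8, the receptor of Ccl1, was at 454 and 436 RPKM in intestinal ILC2s and 87.0 and 92.7 RPKM in adipose ILC2s (change 2.30, adjusted p = 0.000301). Cxcr6, the receptor of Cxcl16, was at 237 and 196 RPKM against 156 and 124 RPKM (change 0.63, adjusted p = 0.037), and this call was lost in 6 of 11 other settings, among them equal sums (adjusted p = 0.0663) and leaving out either SI-ILC2 library. Both receptors were thus far more abundant per length than their ligands in the same libraries.

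Xcr1, the receptor of Xcl1, was at 5.11 and 4.47 RPKM in intestinal ILC2s and 9.92 and 7.40 RPKM in adipose ILC2s (change -0.73, adjusted p = 0.0168), and the call was lost without SI-ILC2 replicate 2 (-0.65, adjusted p = 0.0755). Ackr1, a scavenging receptor of endothelium and red cells that binds several inflammatory chemokines, was at 0.046 and 0.074 RPKM against 2.35 and 1.6 RPKM (change -1.48, adjusted p = 0.00088). Ackr1 passed the filter only through the adipose libraries. Cxcr1 and Cxcr2, the receptors of the CXCR2 ligands, were at 0.056 RPKM or less in every library, and Cxcr3 at 0.091 RPKM or less.

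The proteases that release membrane-anchored chemokines, Adam10 and Adam17, were expressed in both tissues. Adam10 was at 5.30 and 5.70 RPKM in intestinal ILC2s and 8.87 and 7.37 RPKM in adipose ILC2s (change -0.48, adjusted p = 0.0388), a call lost after median-of-ratios scaling (adjusted p = 0.132) and in 5 further settings. Adam17 was at 2.64 and 2.81 RPKM against 2.85 and 3.36 RPKM (adjusted p = 0.462).

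Chemokine mRNAs are short-lived, and many carry AU-rich elements, repeats of ATTTA in the 3′ untranslated region that recruit decay proteins such as tristetraprolin, the product of Zfp36. The 30 bases with the most ATTTA copies in the 3′ untranslated region of each CXCR2 ligand are shown 5′ to 3′ from GENCODE M21 transcripts, with ATTTA in capitals, because the copies are dense in all 3 genes but arranged differently.
Cxcl1: gtcctATTTATTTAtgtATTTATTTAttcc
Cxcl2: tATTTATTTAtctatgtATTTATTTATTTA
Cxcl3: gcatcttATTTAatgtttATTTAatatcaa

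They lie at chr5:90892606-90892635 (Cxcl1), chr5:90905327-90905356 (Cxcl2) and chr5:90787636-90787665 (Cxcl3). Cxcl2 had 11 copies of ATTTA in 734 bases, Cxcl1 had 7 in 592 and Cxcl3 had 5 in 645, or 1.5, 1.18 and 0.775 per 100 bases. Among 7536 tested genes with a 3′ untranslated region of at least 50 bases, the median was 0.126 per 100 bases, and 99.7%, 99.3% and 97.8% of them had a lower density than these genes. The 7-base form TATTTAT occurred 7 times in Cxcl2, 6 times in Cxcl1 and 2 times in Cxcl3, and 26.2% of tested genes held it at least once. Ccl3, Xcl1 and Ccl4 had 1.22, 0.709 and 0.662 copies of ATTTA per 100 bases, Cxcl10 and Cxcl16 had 0.274 and 0.141, and Ccl1 and Ccl5 had none. In the windows shown, Cxcl1 and Cxcl2 held clustered overlapping copies and Cxcl3 spaced ones. Whether these copies bear on the levels in either tissue was not tested.

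Of 9 regulators of mRNA decay, all were tested, and 1 was called higher in intestinal ILC2s and 2 in adipose ILC2s, which is 3 of 9 beside 47.5% of all tested genes. Zfp36 was at 94.6 and 89.8 RPKM in intestinal ILC2s and 228 and 206 RPKM in adipose ILC2s (change -1.23, adjusted p = 0.00185). Its relative Zfp36l2 was at 23.6 and 26.5 RPKM against 91.5 and 79.7 RPKM (change -1.73, adjusted p = 0.000601). Zfp36l1, of the same family, went the other way, at 51.6 and 79.1 RPKM against 29.9 and 34.3 RPKM (change 0.97, adjusted p = 0.0138), and lost its call without SI-ILC2 replicate 2 (adjusted p = 0.0704). Zc3h12a, which encodes the ribonuclease Regnase-1, was at 49.0 and 77.6 RPKM against 72.8 and 108 RPKM and overlapped between tissues (adjusted p = 0.168). The median change of the 9 was -0.24.

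The tested genes whose values over the 4 libraries were most like those of Cxcl3, by Euclidean distance of centred log2(RPKM + 1), were Gls2 (0.0724), Tph1 (0.217) and Ctsh (0.23). Gls2, which encodes a glutaminase, was at 13.3 RPKM in both SI-ILC2 libraries and at 0.74 and 0.61 RPKM in adipose ILC2s. For Cxcl16 they were Mrps18a (0.00598), Klhl9 (0.0229) and Mapre2 (0.0241). With 4 libraries many genes share a pattern, and the distance is a description.

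Several of the 10 chemokines are also made by other cells, so markers of those cells were read in the same libraries. In bulk RNA, fewer cells of a type and less RNA per cell cannot be told apart. The 9 macrophage and dendritic cell markers summed to 4.90 and 3.34 RPKM in intestinal ILC2s and 7.75 and 10.7 RPKM in adipose ILC2s, with Lyz2 at 0.63 and 0.33 against 3.53 and 5.5 RPKM, and 5 of the 9 overlapped between tissues. Granulocyte and mast cell markers (6) summed to 0.84 and 0.80 RPKM in intestinal ILC2s and 1.52 and 1.40 RPKM in adipose ILC2s. In the latter they came mostly from the mast cell gene Cpa3 (1.26 and 1.11 RPKM). Mpo went the other way, at 0.55 and 0.31 RPKM in intestinal ILC2s and 0.15 and 0.11 RPKM in adipose ILC2s. The neutrophil genes S100a8 and S100a9 were at 0.13 RPKM or less. Intestinal epithelial markers (5) summed to 5.26 and 11.1 RPKM in intestinal ILC2s and 8.75 and 8.31 RPKM in adipose ILC2s, mostly from Epcam. Epcam was at 4.68 and 6.04 against 8.28 and 7.85 RPKM and was called higher in adipose ILC2s (limma, adjusted p = 0.0378). Krt8 was at 4.32 RPKM in SI-ILC2 replicate 2 and at 0.37 RPKM or less elsewhere. Vil1, Krt20 and Fabp1 were at 0.52 RPKM or less in all 4 libraries. The part of these cells in the chemokine values was not tested.

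T, NK and ILC1 markers (9) summed to 9.90 and 8.0 RPKM in intestinal ILC2s and 23.6 and 13.0 RPKM in adipose ILC2s, mostly from Cd3g, at 7.07 and 4.94 against 21.2 and 10.8 RPKM. Below the filter, 4 genes of that list had both intestinal libraries above both adipose ones, and Cd8a, Cd8b1 and Tbx21 overlapped. The same separation was seen for Ccl3, Ccl4, Ccl5 and Xcl1, and for 23.3% of the 21851 genes with a value above 0 in any library. Of the 4 markers, Prf1, which encodes perforin, was at 0.93 and 1.0 RPKM in intestinal ILC2s and 0.27 and 0.44 RPKM in adipose ILC2s. Ncr1, the NK cell receptor NKp46, was at 0.20 and 0.19 against 0.036 and 0.046 RPKM. The part of T, NK and ILC1 cells in the values of Ccl3, Ccl4, Ccl5 and Xcl1 was not tested. B and plasma cell markers (4) summed to 7.38 and 5.76 RPKM against 0.48 and 0.14 RPKM, nearly all from Igj, the immunoglobulin J chain, and the part of such cells in the values of Cxcl3 and Cxcl16 was not tested. No gene of these marker lists was at 0 in all 4 libraries. Endothelial, fibroblast and adipocyte markers (9) summed to 5.04 and 5.60 RPKM against 8.68 and 9.20 RPKM. Within that list Fabp4 was called higher in adipose ILC2s (0.26 and 0.17 against 4.32 and 3.43 RPKM) and Pecam1 in intestinal ILC2s (3.88 and 4.49 against 2.04 and 2.97 RPKM). Red cell markers (3) summed to 21.4 and 7.21 RPKM against 71.5 and 46.8 RPKM. The part of these cells in the values of Ackr1, Ccl2 and Ccl11 was not tested.

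**Figure D4:**
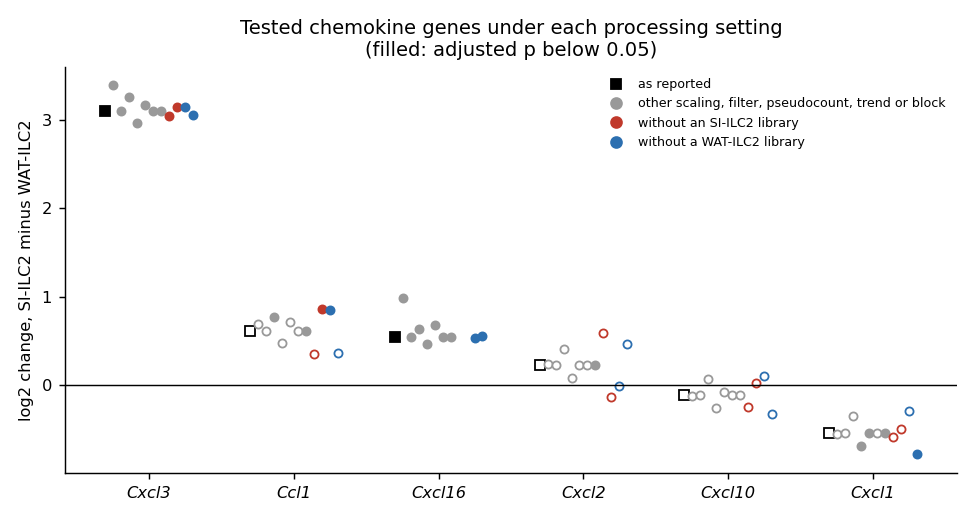
Change of the 6 tested chemokine genes (log2 scale, SI-ILC2 minus WAT-ILC2) as reported (black squares) and under each other processing setting (grey), without an SI-ILC2 library (red) or without a WAT-ILC2 library (blue); filled points have an adjusted p below 0.05. Cxcl3 stays between 2.96 and 3.39, Cxcl2 and Cxcl10 fall on both sides of 0, and the calls of Ccl1, Cxcl1 and Cxcl2 depend on the setting.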

How the data were processed

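The authors deposited RPKM values per gene, 1 column per library with replicates not pooled, per the file headers. STAR 2.6.0, featureCounts 1.6.0 of Subread and build GRCm38 (mm10) are named in the submitters' processing notes; neither the annotation nor the strand setting is given in the sources used here. Columns were matched to samples by title. RPKM is not a count, so log2(RPKM + 1) was fitted with limma 3.58.1 in R 4.3.3 (variance trend, all 4 libraries, no covariate) over 8230 genes with at least 1 RPKM in at least 2 libraries. With 2 libraries against 2, an exact two-sided permutation test per gene cannot go below 0.333. The steps were tested on simulated data.

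Depth was estimated as the number of reads at which values of single-exon genes came nearest to whole reads (within 0.1 for 89.1% to 90.5% of values). Whole multiples of these depths would fit too. Reads were rounded, and intervals of read rates are exact (Clopper-Pearson). Positions, transcripts and overlaps came from GENCODE M21 and promoters from RefSeq (GRCm38.p6). The older symbols Emr1 and Igj were used for Adgre1 and Jchain. The genes and lists were chosen with earlier results of these data known. Named genes were the 10 chemokines and, from the lists of other chemokines, receptors, proteases, mRNA decay regulators and cell markers, the called and the 2 most abundant genes, of which the text gives examples. A few others were named after their values were seen. 1 receptor was left out of its list and is not reported here. The alternatives tried were another pseudocount, no filter, 3 scalings, no variance trend, a replicate block and leaving out each library. Fits without a WAT-ILC2 library gave genes nearly the same SE, such as 0.222 for Cxcl1 and 0.219 for Cxcl3 without replicate 2. Calls in those fits thus rest little on a gene's own spread. Tables and figures used Python 3.11.15, pandas 2.3.3, Biopython 1.88 and matplotlib 3.10.9.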

Additional observations from a re-analysis of the deposited data

How the results depend on the processing

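Cxcl3 kept its call under all 11 alternatives, and Cxcl16 under the 9 in which it was tested. The number of chemokine genes of the group called higher in SI-ILC2, 2 as reported, was 5 with no filter and 1 to 3 when a library was left out; the number called higher in WAT-ILC2, 0 as reported, was 1 after equal sums, 1 with quantile normalization and 0 to 1 when a library was left out. Directions reversed when a library was left out for Cxcl2 (-0.135 to 0.586), Cxcl10 (-0.331 to 0.101) and the decay regulator Khsrp (-0.491 to 0.451, as reported -0.02). They also reversed with median-of-ratios scaling for Cxcl10 (0.0674), Adam17 (0.00417) and Khsrp (0.117), and with quantile normalization for Adam17 (0.0142) and Khsrp (0.129). None of these reversed values was called, and the cause was not tested.

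Over all genes, 1470 were called toward SI-ILC2 and 2436 toward WAT-ILC2, and 745 to 1549 and 1439 to 1995 when a library was left out, where a lone library is assumed to vary like the other tissue. The lowest counts came without SI-ILC2 replicate 1 (745 and 1439), and 768 were higher in SI-ILC2 without SI-ILC2 replicate 2. Other chemokines called higher in SI-ILC2 numbered 0 to 1 when a library was left out, and 2 were called higher in WAT-ILC2 with no filter. Receptors called higher in SI-ILC2 numbered 1 with no filter, equal sums or quantile normalization and 1 to 2 when a library was left out, and those higher in WAT-ILC2 1 to 2. Regulators of mRNA decay called higher in SI-ILC2 numbered 2 with median-of-ratios scaling and 0 to 1 when a library was left out, and shedding proteases higher in WAT-ILC2 numbered 0 with no filter, median-of-ratios scaling or quantile normalization and 0 to 1 when a library was left out.

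The replicate number of the titles may mark pairs, since deviations of same-numbered libraries correlated at 0.572 over the tested genes, but with 2 pairs and no label this is not established. With the replicate block, 2271 and 3430 genes were called, the chemokine group had 4 higher in SI-ILC2 (Ccl1 and Cxcl2 added) and 1 in WAT-ILC2 (Cxcl1), and the mRNA decay regulators had 2 and 5. Depth limits Ccl3, Ccl4, Ccl5 and Xcl1, which rest on 13 reads or fewer in each WAT-ILC2 library.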
